A study of Mus musculus with 15 samples.

Results

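Segmented filamentous bacteria, lactobacilli and Erysipelotrichales are Gram-positive residents of the mouse gut that made up a low share of the stool community in these mice. They are described here in stool taken before or after an acute colitis from mice that were given the peptide GPR15L or saline. An amplicon sequence variant (ASV) is 1 exact sequence of the bacterial 16S rRNA gene, taken here as the finest unit below the genus. Members were the ASVs that the deposited taxonomy places in the genus Candidatus Arthromitus, the family Lactobacillaceae, the order Erysipelotrichales or the genus Turicibacter, with at least 1 count over the 15 libraries. This gave 16 of the 507 ASVs with a count. Candidatus Arthromitus had 1 ASV, Lactobacillaceae 5 and Erysipelotrichales 10, and the 1 ASV of Turicibacter is among those 10. Together the members held 6876 of 1403011 counts, or 0.490%. ASVs are numbered by their total count, so ASV101 is the most abundant member and ASV413 the least abundant.

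All mice were littermates that lacked Gpr15l, the gene of GPR15L, a peptide of mucosal surfaces that attracts cells bearing the receptor GPR15. The saline controls carried the same deletion, and no group held wild-type mice. Colitis was induced with dextran sulfate sodium (DSS), which injures the colonic epithelium, and recombinant human GPR15L or sterile phosphate-buffered saline (PBS) was given rectally each day between day 3 and day 9. Stool DNA was read over V4, a variable stretch of that gene. The groups were GPR15L before DSS (libraries 1 to 3), PBS before DSS (libraries 4 to 6), GPR15L after DSS (libraries 8 to 11) and PBS after DSS (libraries 12 to 15). The labels give the mice as male knockouts and the design text speaks of both sexes. Stool of the first time point precedes the treatment if days count from the start of DSS, which the labels do not say. Sample titles write Gpr15 where the series text writes Gpr15l, and no age is given. Library 7 was left out of every group because its title places it after DSS in the PBS arm while its library name belongs to the sequence of names from before DSS.

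Libraries held 48847 to 197433 counts. Library 4 stood apart in the PBS arm before DSS, with 12 of the 16 members and 295 ASVs at a depth of 48847 counts, where the other 13 grouped libraries had 90.6 to 195. Libraries 6 and 7 stood apart at the low end, with 90.6 and 89.3 ASVs at that depth. Time point and the sequence of library names coincide in the 14 grouped libraries, so a batch and the DSS course cannot be told apart. The design gives 3 to 4 mice per cage without naming a cage for any library, and mice of a cage share bacteria, so cage and arm cannot be told apart and p-values take each library as independent. Mouse numbers differ between time points, so before and after are compared between groups of libraries and not within a mouse. Values are shares of counts, and a smaller share and a rise of all other bacteria cannot be told apart. Shares of different taxa are not compared as cell numbers, since the number of 16S genes per genome differs between bacteria.

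Segmented filamentous bacteria, classified as Candidatus Arthromitus, attach to the epithelium of the ileum in mice and are known for inducing T helper cells that make interleukin-17. Lactobacilli ferment sugars to lactic acid and grow in the forestomach and small intestine of rodents. The Erysipelotrichales include Faecalibaculum and Dubosiella, common fermenters of the mouse colon, and Turicibacter, a small-intestinal genus known for acting on host bile acids and lipids, which some taxonomies place in a family of its own.

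After DSS, Candidatus Arthromitus was found in every library of the PBS arm and in no library of the GPR15L arm. Over the DSS course edgeR called Faecalibaculum and 1 of the 2 Dubosiella ASVs lower in the GPR15L arm, and the Candidatus Arthromitus ASV too. Faecalibaculum and that Dubosiella ASV had no count after DSS in either arm. They entered the test through libraries from before DSS alone, so their tests are not independent of that choice. Candidatus Arthromitus entered only through the groups where it has counts, GPR15L before and PBS after DSS. Its tests are not independent of that choice either. Lactobacillus was found before DSS only and did not pass the test in either arm. In edgeR's test neither the family Lactobacillaceae nor the order Erysipelotrichales as a whole passed in the 5 comparisons. DESeq2 called the order over the GPR15L course alone. Limma voom called it there, between the arms before DSS and in the interaction. The plot of shares by library gives the 4 taxa in every library.

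**Figure D1:**
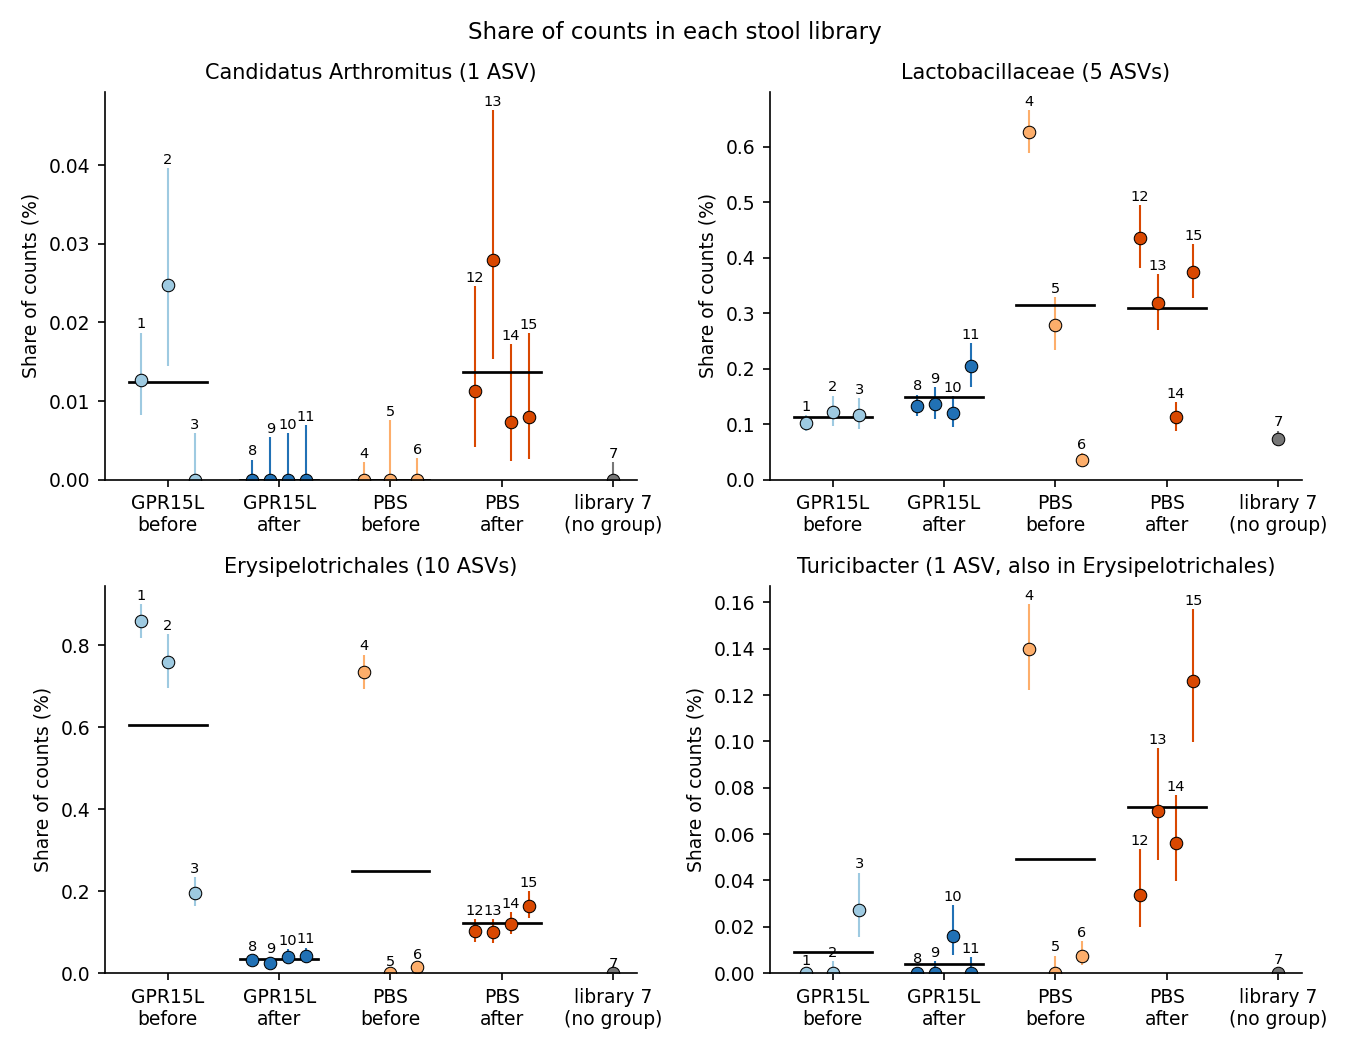
Share of counts (%, vertical axes, each panel with its own scale starting at 0) of Candidatus Arthromitus, Lactobacillaceae, Erysipelotrichales and Turicibacter in each numbered stool library, by group (horizontal axis). Points are libraries, vertical lines exact (Clopper-Pearson) 95% intervals that cover counting error only, and black bars group means; Candidatus Arthromitus has counts in libraries 1, 2 and 12 to 15 only, and Erysipelotrichales lie between 0.0248% and 0.0412% in libraries 8 to 11 and between 0.0999% and 0.165% in libraries 12 to 15.

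Candidatus Arthromitus was represented by ASV308, with 72 counts in all. Before DSS it had 25, 17 and 0 counts in libraries 1, 2 and 3 of the GPR15L arm and 0 counts in libraries 4, 5 and 6 of the PBS arm. After DSS it had 0 counts in libraries 8, 9, 10 and 11 of the GPR15L arm and 6, 14, 5 and 5 counts in libraries 12, 13, 14 and 15 of the PBS arm. The arm that held the genus before DSS was thus the one without it after DSS, and the reverse held for the PBS arm.

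As shares of counts, ASV308 made up 0.0125% ± 0.0124 (SD, n = 3) in the GPR15L arm before DSS and 0.0137% ± 0.00970 (n = 4) in the PBS arm after DSS. Library 13 was the highest at 0.0280% (exact 95% interval 0.0153% to 0.0469%) and library 14 the lowest with a count at 0.00737% (0.00239% to 0.0172%). An absence of counts in libraries 8 to 11 allows a share of up to 0.000912% over the group (3 counts of its summed total) and of up to 0.00562% in library 11, the shallowest of them. The 5 counts of libraries 14 and 15 lie close above that limit for a lone library. When every library was thinned to 48847 counts, ASV308 was still found in 2 of 3, 0 of 3, 0 of 4 and 4 of 4 libraries of the GPR15L arm before, the PBS arm before, the GPR15L arm after and the PBS arm after DSS.

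After DSS, ASV308 was at least 15.0-fold lower with GPR15L than with PBS, a bound that sets 3 counts over the GPR15L group against the PBS mean. The bound was 8.41 without library 8 and 9.75 without library 13. The ASV passed edgeR's quasi-likelihood test with Benjamini-Hochberg adjustment over 282 ASVs (log2 fold change -6.61 ± 2.12 SE, adjusted p = 0.0404), as 28% of all ASVs tested did in this comparison. Summed as a genus it passed too (-6.83 ± 1.98 SE, adjusted p = 0.0437), as did 14.1% of the 78 genera tested. The genus call was lost with DESeq2 (0.138), with no count filter (0.0955) and with total counts as scaling (0.0532). These fitted log2 values depend on the small count that edgeR adds where a group is at 0, and they are no bound. The 2 groups did not overlap in ASV308, which held for 30.9% of the 282 ASVs. ASV308 passed the count filter only through libraries 1, 2 and 12 to 15, so its tests are not independent of the filter.

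Over the DSS course, ASV308 fell in the GPR15L arm by at least 13.7-fold (log2 fold change -6.48 ± 2.14 SE, edgeR adjusted p = 0.0484), while the genus fit missed the threshold (adjusted p = 0.0635). With PBS it was at least 15.7-fold higher after than before DSS and did not pass (log2 fold change 6.61 ± 2.30 SE, edgeR adjusted p = 0.0900). Before DSS it was at least 14.3-fold higher in the GPR15L arm and did not pass (edgeR adjusted p = 0.251). The test of the difference itself, the change over DSS in the GPR15L arm minus that in the PBS arm, passed for the ASV (log2 -13.09 ± 3.18 SE, edgeR adjusted p = 0.0246) and for the genus (-13.41 ± 2.93 SE, adjusted p = 0.0247). Of all features tested, 9.93% of ASVs and 3.85% of genera passed this test. The bounds fell with 1 library left out, to 6.95 in the GPR15L arm (without library 2), 8.28 in the PBS arm (without library 4) and 7.26 before DSS (without library 2).

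These calls rest on few counts and on where library 7 belongs. Library 7 had no count of ASV308, and with it placed as titled the adjusted p became 0.0676 (ASV) and 0.107 (genus) after DSS and 0.0629 and 0.163 for the interaction. For the ASV over the GPR15L course it became 0.0708 by edgeR. That ASV call of the GPR15L course was lost with DESeq2 (adjusted p = 0.0638), limma voom (0.0701) and no count filter (0.187) as well. With no count filter the ASV call after DSS was lost too (edgeR adjusted p = 0.186). So were those of the interaction (0.0864 for the ASV and 0.0546 for the genus). DESeq2 called the genus but not the ASV in the interaction. The ASV call after DSS was also lost without library 1, 8, 9, 11, 12, 13, 14 or 15 (edgeR adjusted p up to 0.0762), that of the GPR15L course without any 1 library except 4 or 6 (up to 0.0934), and that of the interaction without library 5 (0.0598). The genus call after DSS held in 4 of 14 fits with a library left out, those without library 3, 4, 5 or 6 (edgeR adjusted p up to 0.0909 in the others). The genus call of the interaction held in 8 of 14, and was lost without library 1, 3, 5, 6, 8 or 14 (edgeR adjusted p up to 0.0695).

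Lactobacillaceae had close means at both times within each arm and a higher mean in the PBS arm, without passing the test. In the GPR15L arm the family made up 0.113% ± 0.0105 (n = 3) of counts before DSS and 0.148% ± 0.0380 (n = 4) after it. In the PBS arm it made up 0.314% ± 0.297 (n = 3) and 0.310% ± 0.140 (n = 4). Before DSS the 3 libraries of the GPR15L arm lay between 0.102% and 0.122% and libraries 4, 5 and 6 of the PBS arm at 0.627%, 0.278% and 0.0361%. After DSS libraries 8 to 11 lay between 0.120% and 0.204% and libraries 12 to 15 at 0.435%, 0.318%, 0.112% and 0.374%. The PBS libraries thus spread on both sides of the GPR15L libraries at each time, and the arms overlapped.

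In the family fit, the log2 fold change between arms was -0.54 ± 1.16 SE before DSS (edgeR adjusted p = 0.745) and -0.60 ± 1.01 SE after DSS (adjusted p = 0.692). Over DSS it was 0.10 ± 1.08 SE in the PBS arm and 0.04 ± 1.08 SE in the GPR15L arm, and both signs turned with other scalings. Without library 4 the mean of the PBS arm before DSS was 0.157%.

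Within the family, ASV101, which has no genus name, carried most of the counts and was the only member found in all 15 libraries. It had 117, 41 and 73 counts in libraries 1 to 3, 480, 69 and 48 in libraries 4 to 6, 155, 60, 62 and 70 in libraries 8 to 11, and 199, 94, 57 and 202 in libraries 12 to 15. Its counts were highest in library 4, one of the deeper libraries. As a share of counts it reached 0.375% in the PBS arm after DSS, against at most 0.296% in that arm before DSS. Its groups overlapped in all comparisons. Of the family's summed counts it held 64.5% before and 74.0% after DSS with GPR15L, and 49.7% and 78.9% with PBS. Ligilactobacillus, a genus of host-adapted lactobacilli, was represented by ASV175 and was found in 12 libraries, all but libraries 3, 6 and 7. Its share with GPR15L was 0.0217% ± 0.0195 before and 0.0361% ± 0.0253 after DSS, and with PBS 0.0457% ± 0.0562 and 0.0467% ± 0.0309, and its groups overlapped throughout.

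Lactobacillus, the type genus of the family, was represented by ASV227 and was found before DSS only. It had 10, 7 and 0 counts in libraries 1 to 3, 226, 20 and 0 in libraries 4 to 6, and no count in libraries 8 to 15. Library 4 held 85.9% of its counts, and the bound for the PBS arm that follows was 15.9 without it. In the PBS arm it fell short of the threshold (at least 46.8-fold lower after DSS, log2 -8.34 ± 2.77 SE, adjusted p by edgeR = 0.0900), and so it did in the GPR15L arm (at least 5.58-fold lower, -5.21 ± 2.37 SE, adjusted p = 0.107). The remaining members of the family have no genus name. ASV231 had 20 to 135 counts in libraries 1, 4 and 5 and 3 to 23 counts in 5 libraries after DSS, and ASV397 had 10 counts in library 2 alone.

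**Figure D2:**
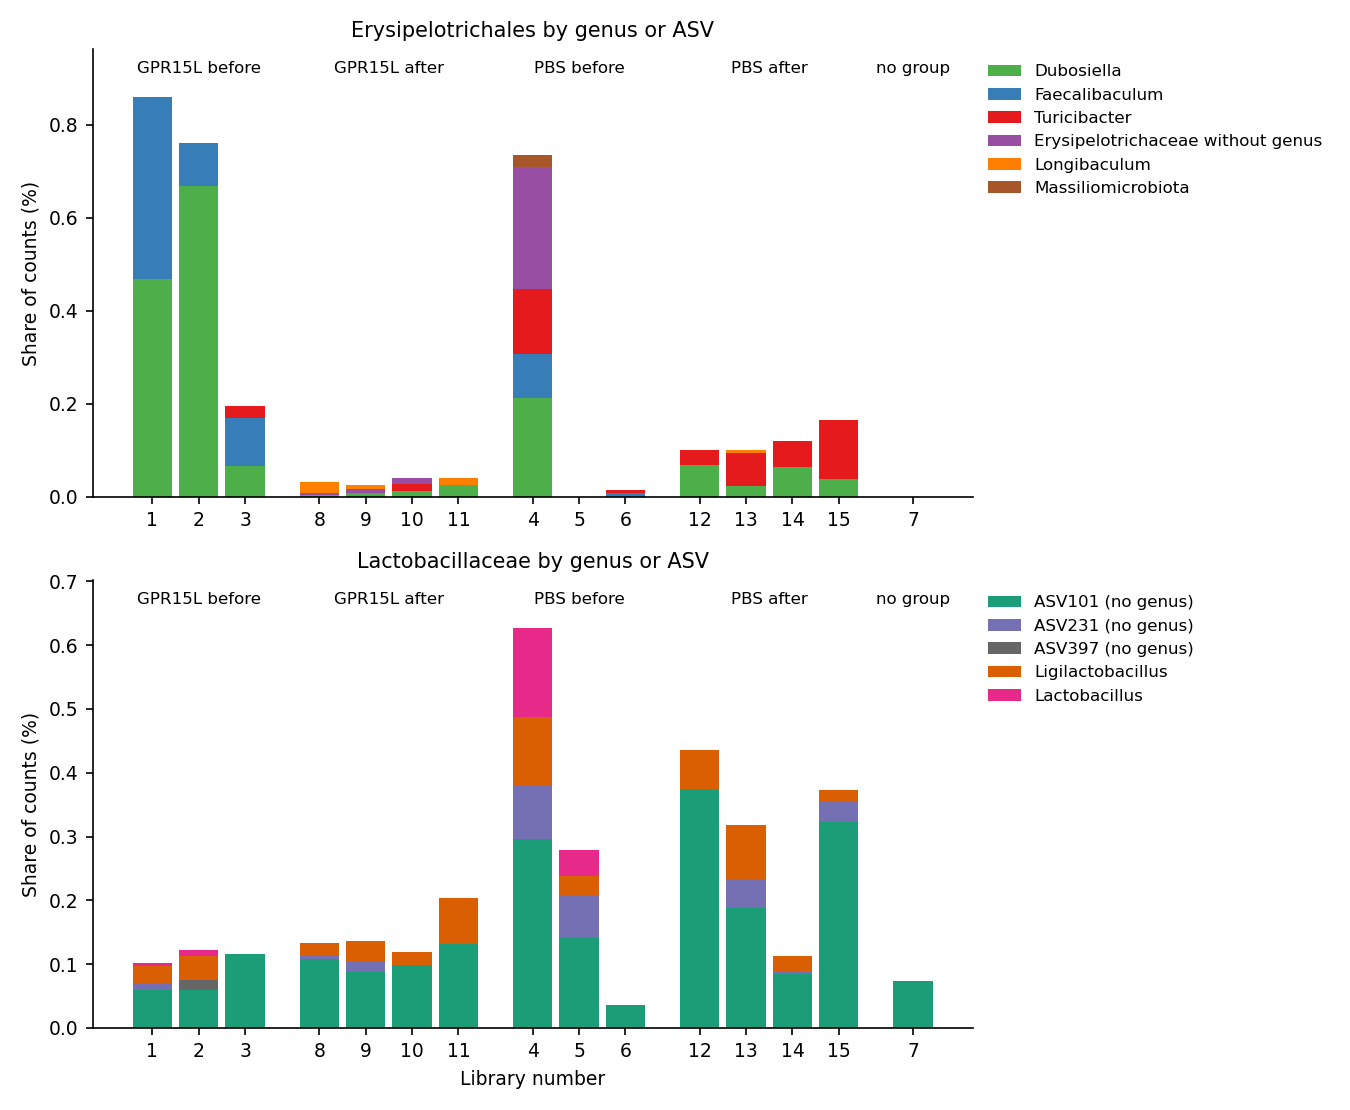
Share of counts (%, vertical axes from 0) of Erysipelotrichales (top) and Lactobacillaceae (bottom) in each library (horizontal axis, by group), stacked by genus. ASVs without a genus name are pooled in the top panel and shown singly in the bottom panel. Dubosiella and Faecalibaculum make up most of the order in libraries 1 to 3, Turicibacter and Dubosiella most of it in libraries 12 to 15, and library 4 alone holds Massiliomicrobiota.

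Erysipelotrichales stood at a low share in all 4 libraries of the GPR15L arm after DSS, and at a lower one still in libraries 5 and 6 of the PBS arm before DSS. The order made up 0.859%, 0.760% and 0.196% of counts in libraries 1 to 3 of the GPR15L arm before DSS, and 0.0326%, 0.0248%, 0.0399% and 0.0412% in libraries 8 to 11 after DSS. In the PBS arm it made up 0.735%, 0 and 0.0150% in libraries 4 to 6 before DSS, and 0.102%, 0.0999%, 0.119% and 0.165% in libraries 12 to 15 after DSS. The GPR15L libraries did not overlap between times, and the arms did not overlap after DSS. Such a lack of overlap held for 29.4% and 30.9% of all ASVs tested, and was not counted for orders. Before DSS the PBS arm spread from 0 to 0.735% and overlapped with every other group.

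The group means were 0.605% ± 0.358 (n = 3) before and 0.0346% ± 0.00757 (n = 4) after DSS in the GPR15L arm, a 17.5-fold lower share. This fell short of the threshold in the order fit (log2 fold change -3.94 ± 1.51 SE, edgeR adjusted p = 0.0677), where 3.7% of the 27 orders passed. With DESeq2, limma voom, no count filter or the 2 groups fitted alone it passed (adjusted p between 0.00879 and 0.0482). After DSS the mean of the PBS arm was 0.121% ± 0.0301 (n = 4), 3.51-fold above that of the GPR15L arm, and the difference did not pass (-1.34 ± 1.33 SE, edgeR adjusted p = 0.544), where 29.6% of orders passed. Before DSS the mean of the PBS arm was 0.250% ± 0.420 (n = 3), which became 0.00752% without library 4. In that case the difference between arms before DSS, which did not pass with it (log2 1.96 ± 1.56 SE, edgeR adjusted p = 0.393), passed (6.79, adjusted p = 0.0273). The interaction did so too (-3.30 ± 2.05 SE, edgeR adjusted p = 0.356 with library 4, and -8.16, 0.0119 without it).

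The genera that made up the order differed between the groups. In the GPR15L arm before DSS, Faecalibaculum held 38.4% of the order's summed counts and the Dubosiella ASVs 33.8% (ASV120) and 27.0% (ASV158). After DSS the GPR15L arm held Longibaculum (43.2%), ASV120 (29.7%), ASV369 without a genus (18.0%) and Turicibacter (9.01%). The PBS arm after DSS held Turicibacter (59.0%), ASV120 (39.9%) and Longibaculum (1.04%). These shares of a small sum are descriptions and were not tested.

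Faecalibaculum, a fermenter that makes lactic acid and short-chain fatty acids, was represented by ASV126 and was found before DSS only. It had 772, 63 and 65 counts in libraries 1 to 3, 153, 0 and 10 counts in libraries 4 to 6, and no count in libraries 7 to 15. All GPR15L libraries before DSS held it and none after DSS did. Library 1 held 72.6% of its counts. It fell in the GPR15L arm by at least 214-fold, or 107-fold without library 1 and 120-fold without library 8 (log2 -10.75 ± 2.76 SE, adjusted p by edgeR = 0.0285 as an ASV and 0.0217 as a genus), in a comparison where 28.4% of ASVs and 10.3% of genera passed. In the PBS arm, where its mean before DSS was 0.0339% ± 0.0524 against 0.195% ± 0.169 in the GPR15L arm, it was at least 26.4-fold lower after DSS (2.93 without library 4) and did not pass (-7.55 ± 2.48 SE, edgeR adjusted p = 0.0900). As a genus it passed in the PBS arm with DESeq2 (log2 fold change -6.20, adjusted p = 0.0408). Both arms were without a count after DSS, so edgeR's test of the interaction could not pass and does not show whether the falls differed. Before DSS the arms did not differ past the threshold (edgeR adjusted p = 0.541). In the GPR15L arm the ASV call was lost without library 1, 3, 8, 9, 10 or 11 (edgeR adjusted p up to 0.0662) and was kept with library 7 as titled (0.0369). The ASV passed the count filter through libraries from before DSS alone, so the tests of its fall are not independent of the filter.

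Dubosiella, a close relative of Faecalibaculum, had 2 ASVs that differed in how they were distributed. ASV158 had 615, 0 and 17 counts in libraries 1 to 3, 24 counts in library 4 and none elsewhere, so library 1 held 93.8% of its counts. It fell over DSS in the GPR15L arm by at least 124-fold, or 14.9-fold without library 1, (log2 -10.10 ± 3.32 SE, adjusted p by edgeR = 0.0484), and its adjusted p was 0.0631 with library 7 as titled. The call was also lost with DESeq2 (adjusted p = 0.0671) and, in edgeR, with total counts as scaling (0.0530). That call held in 1 of the 11 fits with a library left out in which the ASV was still tested. ASV158 passed the count filter through libraries from before DSS alone, so the test of its fall is not independent of the filter. ASV120 had 309, 459 and 24 counts in libraries 1 to 3, 320, 0 and 0 in libraries 4 to 6, 5, 6, 8 and 14 in libraries 8 to 11, and 36, 12, 43 and 24 in libraries 12 to 15. It was thus present in every grouped library except libraries 5 and 6.

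ASV120 made up 0.288% ± 0.335 before and 0.0128% ± 0.00972 after DSS in the GPR15L arm, 22.5-fold lower (7.61 without library 2) without overlap, and did not pass (log2 fold change -4.07 ± 1.92 SE, edgeR adjusted p = 0.105, against 0.0263 with DESeq2). Both ASVs summed as a genus were 31.3-fold lower after DSS in that arm (20.8 without library 2), without overlap, and did not pass either (-4.79 ± 1.71 SE, edgeR adjusted p = 0.0793). DESeq2, limma voom and a fit of the 2 groups alone put the genus past the threshold (adjusted p between 0.00213 and 0.0122). In this comparison the groups did not overlap for 29.4% of all ASVs tested. With PBS the genus stood at 0.0707% ± 0.122 before DSS, all of it in library 4, and at 0.0484% ± 0.0208 after it (0.23 ± 1.54 SE, edgeR adjusted p = 0.956). Without library 4 this became a rise (7.97, edgeR adjusted p = 0.0171). The genus was then higher in the GPR15L arm before DSS (11.88, edgeR adjusted p = 0.00705, against 3.36 ± 1.79 SE and 0.361 with library 4). That left libraries 5 and 6, both without a count of the genus, so these log2 values depend on the small count that edgeR adds. The bounds without library 4 were at least 29.3-fold for the rise and at least 243-fold between the arms.

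Longibaculum (ASV328) and ASV369, an Erysipelotrichaceae ASV without a genus, were found after DSS only and mostly in the GPR15L arm. ASV328 had 35, 5, 0 and 8 counts in libraries 8 to 11 and 3 counts in library 13. ASV369 had 7, 6, 7 and 0 counts in libraries 8 to 11 and none elsewhere. Both entered the fit only through libraries of the time where they are high. For ASV369 these were libraries 8, 9 and 10 of the GPR15L arm alone, so its test between the arms is not independent of the filter. After DSS ASV369 was at least 4.82-fold higher with GPR15L and did not pass (log2 5.62 ± 2.03 SE, adjusted p by edgeR = 0.0655), and ASV328 did not either (7.76-fold by the means, 4.95 without library 8, edgeR adjusted p = 0.314). ASV193 and ASV326 of the Erysipelotrichaceae, with 376 and 52 counts, and ASV350 and ASV413 of Massiliomicrobiota, with 33 and 7 counts, were found in library 4 alone and had counts in too few libraries to be tested.

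Turicibacter was higher in the PBS arm after DSS in the libraries at hand, without passing edgeR's test. Its ASV182 had 0, 0 and 17 counts in libraries 1 to 3 and 227, 0 and 10 counts in libraries 4 to 6 before DSS. After DSS it had 0, 0, 10 and 0 counts in libraries 8 to 11 of the GPR15L arm and 18, 35, 38 and 79 counts in libraries 12 to 15 of the PBS arm. All 4 PBS libraries after DSS lay above all 4 GPR15L libraries, whereas the arms overlapped before DSS. After DSS the arms did not overlap for 30.9% of all ASVs tested.

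The mean shares of Turicibacter after DSS were 0.00399% ± 0.00797 and 0.0715% ± 0.0393 (n = 4 each) in the GPR15L and PBS arms, 17.9-fold apart. The GPR15L mean comes from the 10 counts of library 10, and without it that group is at 0 and the PBS arm at least 63.5-fold higher. The difference did not pass (log2 -3.59 ± 2.24 SE, adjusted p by edgeR = 0.306 as a genus and 0.274 as an ASV), and passed with limma voom (-5.03, adjusted p = 0.0436). Before DSS the means were 0.00903% ± 0.0156 and 0.0491% ± 0.0787 (n = 3 each), and the latter became 0.00376% without library 4. Over DSS the genus fit gave 1.20 ± 2.22 SE in the PBS arm and -1.78 ± 2.25 SE in the GPR15L arm, neither past the threshold, and the value of the GPR15L arm turned to 5.52 without library 3.

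**Figure D3:**
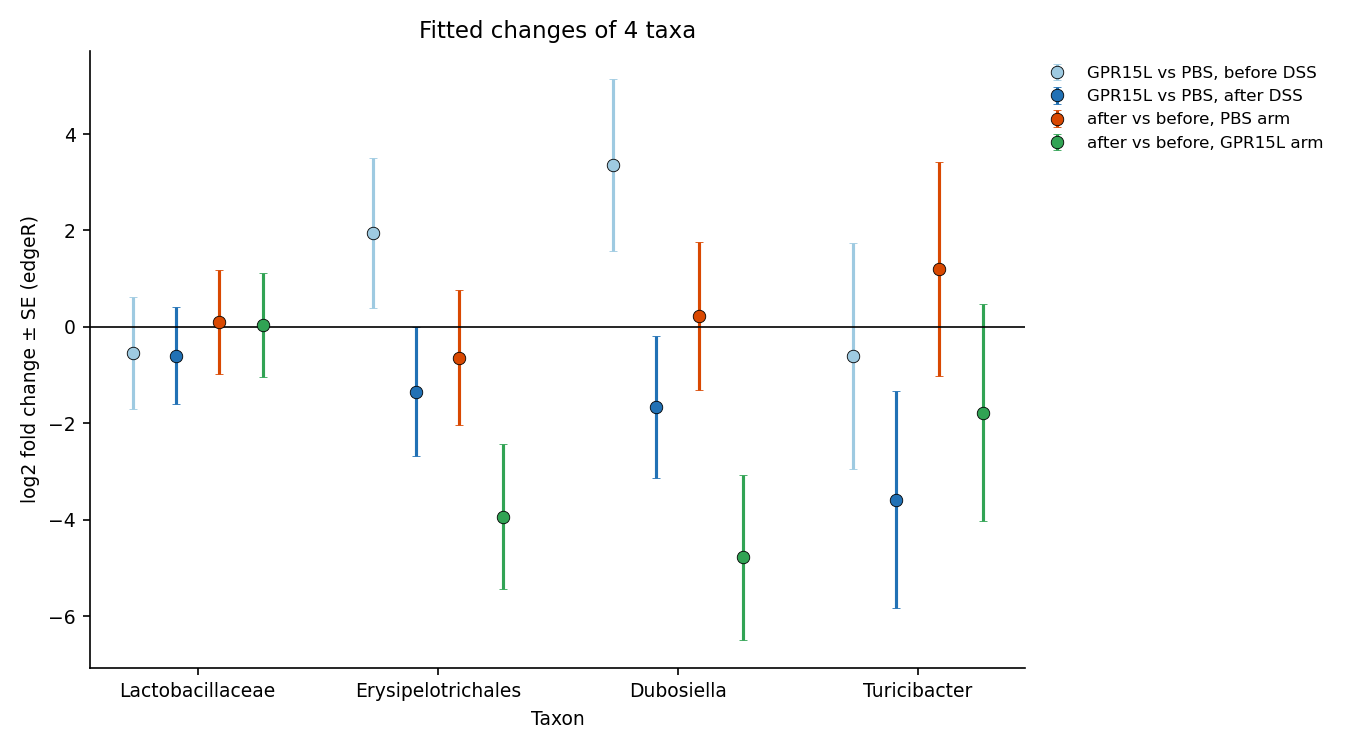
Fitted log2 fold changes (vertical axis) with their SE from the edgeR fits of 14 libraries, for 4 taxa with a count in every group (horizontal axis), in the 4 comparisons of 2 groups. None of these passed the adjusted threshold; the values furthest from 0 are those of Dubosiella (-4.79) and Erysipelotrichales (-3.94) over DSS in the GPR15L arm.

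Of the 16 members, 11 passed the count filter (at least 10 counts in all and a count in 3 or more of the 14 libraries) and were tested. After DSS 1 of these 11 was lower with GPR15L and 10 did not pass, where 28% of all ASVs passed. Among those 10, ASV126, ASV158 and ASV227 had no count in either arm after DSS and could not pass. In the GPR15L arm 3 of 11 fell over DSS (ASV126, ASV158 and ASV308) and 8 did not pass, where 28.4% of all ASVs passed. The members' shares of calls were thus no higher than those of all ASVs, with members that could not pass counted among the 11. Of the called members, ASV126 and ASV158 passed the count filter through libraries from before DSS alone. ASV308 passed it only through libraries 1, 2 and 12 to 15, in the groups where it is high. The tests of all called members are thus not independent of the filter. In the interaction 1 of 11 passed (ASV308), where 9.93% of all ASVs passed. ASV126, ASV158, ASV227, ASV328 and ASV369 could not pass it. Each had a time without a count in either arm.

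In the other comparisons few members passed. Between the arms before DSS 0 of 11 passed edgeR's test, with 1 at an unadjusted p under 0.05 and 0 by DESeq2 and 0 by limma voom, where 1.77% of all ASVs passed. ASV328 and ASV369 had no count at that time and could not pass. Over DSS with PBS 0 of 11 passed edgeR's test, with 3 at an unadjusted p under 0.05, 0 by DESeq2 and 1 (ASV308) by limma voom, where 4.26% of all ASVs passed. ASV369 had no count in that arm and could not pass. Shares of the 2 groups did not overlap for 2 of the 11 after DSS (ASV182 and ASV308), for 0 before DSS, for 1 in the PBS arm (ASV308) and for 2 in the GPR15L arm (ASV120 and ASV126). The same held for 30.9%, 10.3%, 17.7% and 29.4% of all ASVs tested.

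Of the 4 taxa, Candidatus Arthromitus alone passed edgeR's test after DSS and in the interaction. After DSS limma voom called it and Turicibacter, and DESeq2 called 0 of the 4. In the interaction limma voom called it and Erysipelotrichales (adjusted p = 0.0326), and DESeq2 called it alone. Among all families tested 21.1% passed after DSS and 5.26% in the interaction, and among orders 29.6% and 11.1%. Between the arms before DSS none of the 4 taxa passed edgeR's test, with 1 at an unadjusted p under 0.05, 0 by DESeq2 and 1 (Erysipelotrichales) by limma voom. At that time 0% of genera, 0% of families and 0% of orders passed. Over DSS with PBS none passed edgeR's test, with 1 at an unadjusted p under 0.05, 0 by DESeq2 and 1 (Candidatus Arthromitus) by limma voom, where 5.13% of genera, 5.26% of families and 0% of orders passed. In the GPR15L arm over DSS none passed edgeR's test, with 2 at an unadjusted p under 0.05 and 1 (Erysipelotrichales) by each of DESeq2 and limma voom, where 10.3% of genera, 2.63% of families and 3.7% of orders passed.

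**Figure D4:**
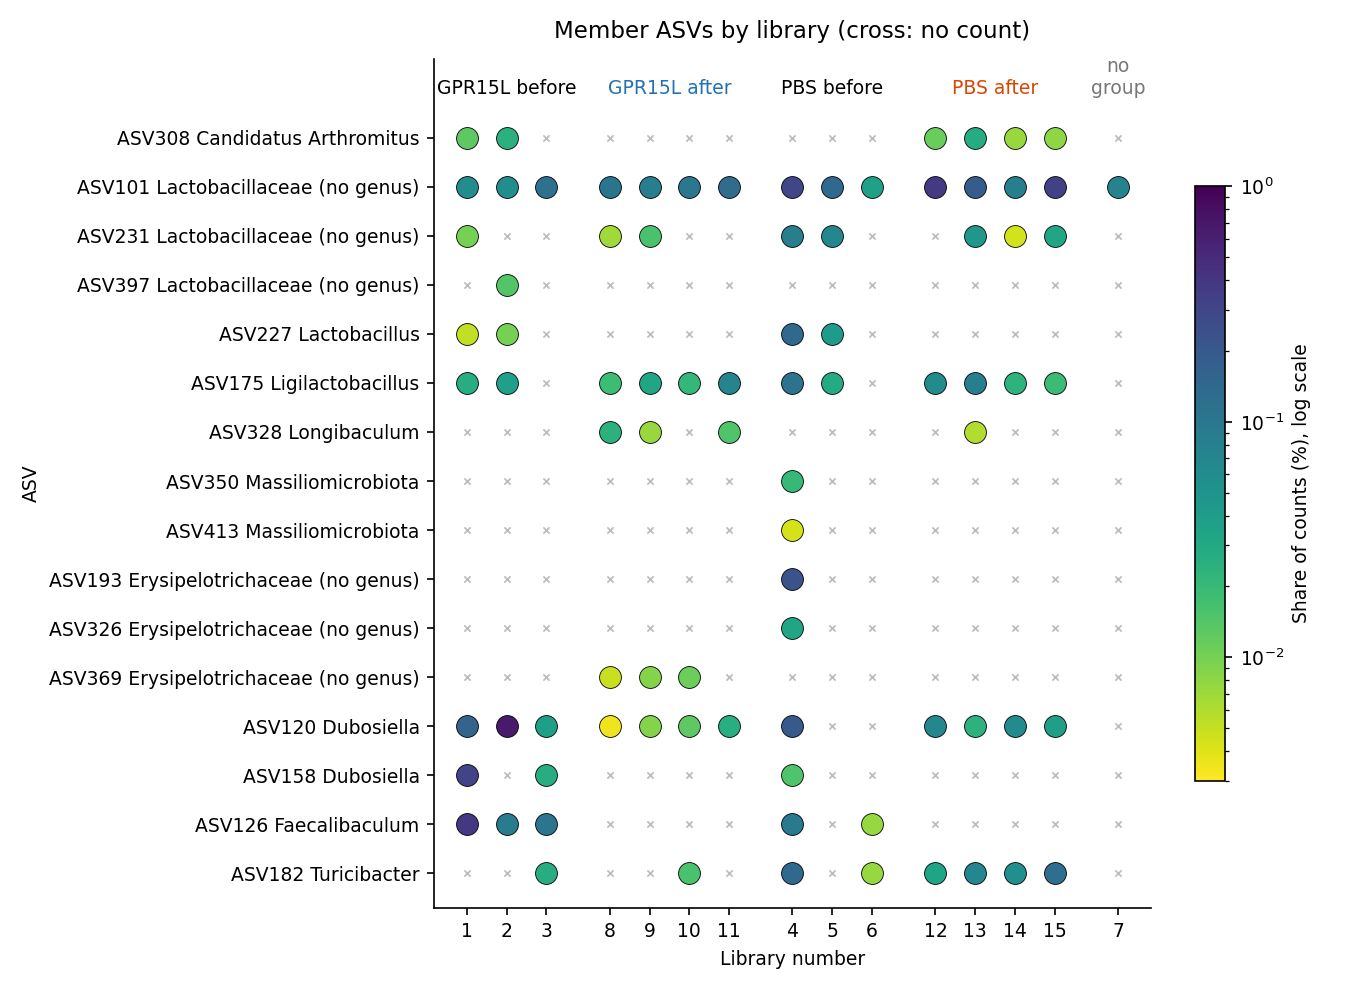
Share of counts (%, colour, logarithmic scale) of each member ASV (rows, with its genus or family) in each library (columns, by group). A cross marks no count; ASV126, ASV158 and ASV227 have counts before DSS only, ASV328 and ASV369 after DSS only, and library 4 has the most members (12).

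Several members were found at 1 time only, which is given as a description with no test. Faecalibaculum ASV126 was found in 5 of 6 libraries before DSS and 0 of 8 after, Lactobacillus ASV227 in 4 of 6 and 0 of 8, and Dubosiella ASV158 in 3 of 6 and 0 of 8. Longibaculum ASV328 was found in 0 of 6 libraries before DSS and 4 of 8 after, and ASV369 in 0 of 6 and 3 of 8. These ASVs passed the count filter through the libraries of that time alone, so the tests of their course within an arm are not independent of the filter. For ASV369, counted in the GPR15L arm alone, the same holds for the test between the arms after DSS.

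Other low-share Gram-positive bacteria were looked at beside the members, as a list of the remaining Bacilli, other Clostridiaceae, Peptostreptococcaceae and Actinobacteriota. It held 24 ASVs with a count, of which 7 were tested. In the 5 planned comparisons 0 of these 7 passed edgeR's test or DESeq2. At an unadjusted p under 0.05 there were 2 after DSS, 1 before DSS, 1 in the PBS arm, 1 in the GPR15L arm and 0 in the interaction, and limma voom called 2 after DSS and 1 in the GPR15L arm.

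The genera outside the members whose shares followed each taxon most closely were ranked by Spearman's rho over the 14 grouped libraries, among 69 genera. These values are descriptions over libraries that share groups and depth, and many pairs share libraries without a count. Candidatus Arthromitus was closest to Brachyspira, a spirochaete (rho = 0.717, both found in 5 libraries), Christensenellaceae without a genus (0.702) and Ruminococcus (0.616). Turicibacter was closest to Romboutsia of the Peptostreptococcaceae (0.843, both found in 6 libraries), UCG-009 of the Butyricicoccaceae (0.709) and RF39 of the Bacilli (0.704). Erysipelotrichales were closest to Bifidobacterium (0.793, both found in 4 libraries), Brachyspira (0.561) and Lachnospiraceae UCG-004 (0.545). For Lactobacillaceae the closest genera were the Lachnospiraceae FCS020 group (0.616), Clostridia UCG-014 (0.607) and Ureaplasma (0.604).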

How the data were processed

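The authors deposited 1 table of whole-number read counts per ASV for 15 stool libraries, with a taxonomy string per ASV. Per the labels' protocols, the V4 region was amplified from 10 ng of template over 25 PCR cycles and sequenced on an Illumina MiSeq with reads of 151 bases. The submitters' processing notes list R 4.5.1 and limma without a role, and DADA2 is known from the deposited table's name alone. Neither its settings nor the reference taxonomy is stated in the labels. Of 3697 rows, 3190 were at 0 in all libraries, among them 135 of the 151 rows of the 4 taxa. Sequences of the ASVs were not used here.

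Shares are percent of a library's total count. Intervals are exact (Clopper-Pearson) at 95%, and folds against a group at 0 use 3 counts over that group; both cover counting error only. Counts were fitted in edgeR 4.0.16 (R 4.3.3): TMMwsp scaling, 1 mean per group over 14 libraries, the quasi-likelihood test, Benjamini-Hochberg at 0.05. Tables of 282 ASVs, 78 genera, 38 families and 27 orders were fitted whole, with the lowest named rank where a name was missing. An SE is the absolute log2 value divided by the root of F. The fit was tested on simulated data. Other settings tried were scaling by TMM or by totals alone, voom in limma 3.58.1, DESeq2 1.42.0 with poscounts, dropping the count filter, requiring a count in 5 or more libraries, thinning to the smallest total, the 2 groups fitted alone, library 7 as titled and each library left out. A change over both arms, fitted after the data were seen, was withdrawn because the absence of counts after DSS had chosen it; folds with each library left out were also added then. Nothing says that libraries of a group came from separate cages, so p-values measure the spread between these libraries.

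All members are accounted for, and tested members are described singly. For each taxon the 3 closest genera were named. Members and lists were chosen with earlier results of these data known.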

Additional observations from a re-analysis of the deposited data

Results flagged for a closer look

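Within groups of 4 libraries, 5 of 32 group values had a library far from the others, a gap to the nearest library above Dixon's 95% limit. A group with a count in 1 library and 0 in the other 3 always exceeds this limit, so the flags are descriptions and no rate by chance is given. Turicibacter, and its only ASV, ASV182, was at 0.0159% in library 10 and at 0 in the other 3 libraries of the GPR15L arm after DSS. Longibaculum, and its only ASV, ASV328, was at 0.00600% (3 counts) in library 13 and at 0 in the other 3 libraries of the PBS arm after DSS. All members summed were at 0.245% in library 11, above the other 3 libraries of that GPR15L group (0.159% to 0.166%). The first 2 of these are each counted for the ASV and for the genus.

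The change over DSS differed between the arms by a test of the difference itself for ASV308 (log2 -13.09, edgeR adjusted p = 0.0246) and for its genus Candidatus Arthromitus (log2 -13.41, adjusted p = 0.0247). Both values compare groups at 0 and depend on the count added by the fit. The count filter was passed only through the groups that hold counts, so these tests are not independent of it.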

How the results depend on the processing

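No paired analysis was possible because no mouse number occurs at both time points. Among fitted log2 values under another setting, 285 kept their direction and their side of the threshold, 17 lost a call, 17 gained one and 13 turned sign. Fits that kept their direction but gave no adjusted p were counted among the 285. With a library left out the numbers were 447, 59, 13 and 21. The cause of a change was not tested. After DSS the edgeR test called 1 member ASV and 1 taxon; limma voom called 2 and 2, no count filter 0 and 0, library 7 as titled 0 and 0, the 2 groups fitted alone 2 ASVs, and total counts and DESeq2 each 0 taxa. Before DSS limma voom called 1 taxon, and over the PBS course 1 ASV and 1 taxon. Over the GPR15L course library 7 as titled left 1 ASV, and DESeq2, limma voom, no filter, a count in 5 or more libraries and the 2 groups alone called 1 taxon each. There the call of ASV308 was also lost with DESeq2, limma voom and no filter, and that of ASV158 with DESeq2 and total counts. DESeq2 called ASV120 in addition. In the interaction limma voom called 2 ASVs and 2 taxa, no filter and library 7 as titled 0 and 0, and DESeq2 0 ASVs.

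Lactobacillaceae turned sign over the PBS course with TMM (-0.14), total counts (-0.0195), DESeq2 (-0.0190) and library 7 as titled (-0.16), over the GPR15L course with TMM (-0.50) and no filter (-0.0331), and in the interaction with total counts (0.40), DESeq2 (0.11), thinning (0.12) and library 7 as titled (0.20). Over the PBS course Erysipelotrichales turned to 2.65 with limma voom, and Dubosiella to -0.55 with total counts and -0.0892 with library 7 as titled. None of these passed the threshold.

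With each library left out in turn, called ASVs ranged from 0 to 2 after DSS, 0 to 3 over the GPR15L course and 0 to 2 in the interaction, and called taxa from 0 to 1, 0 to 2 and 0 to 2, with 0 to 1 before DSS. Log2 values ranged as follows. Lactobacillaceae lay between -0.39 and 0.69 over the PBS course, -0.40 and 0.58 over the GPR15L course, and -0.91 and 0.48 in the interaction. Erysipelotrichales lay between -1.22 and 4.15 over the PBS course. Turicibacter lay between -7.92 and 2.02 before DSS, -7.30 and 5.52 over the GPR15L course, and -8.50 and 4.32 in the interaction. Dubosiella lay between -0.36 and 7.97 over the PBS course. The 2 groups fitted alone give no interaction. Depth limits what an absence shows, since 1 library allows up to 0.00614% at 0 counts in the shallowest.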

Other observations

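Library 7, which was placed in no group, held 1 of the 16 members, ASV101 of the Lactobacillaceae, with 124 of 167329 counts (0.0741%, exact 95% interval 0.0616% to 0.0883%). It had no count of Candidatus Arthromitus, Erysipelotrichales or Turicibacter, which allows a share of up to 0.00179% of each. Libraries 5 and 6 of the PBS arm before DSS held 4 and 3 members. In libraries 12 to 15, the titled group of library 7, there were 5 to 7 members each.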
